A study of Mus musculus with 3 samples.

Results

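Lrp2, Cubn, Amn and Dab2, which encode the apical uptake machinery of the proximal tubule, were read across cell classes and libraries of a single-cell RNA-seq experiment on mouse kidney cortex. The members were fixed by name, 4 of the 22535 genes in the count tables. None of them was used to name a cell class or to cluster the cells, but the class rules were set with their levels in view. The members' unique molecular identifiers (UMIs, tags that let each captured RNA molecule be counted once) were summed over barcodes with at least 200 genes and at most 50% of UMIs from mitochondrial genes. Of 30008 barcodes, 26760 passed.

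The mice were WT1CreERT2; Rosa26-tdTfl/+, in which tamoxifen switches on the red reporter tdT in cells that transcribe WT1, mainly podocytes and the parietal epithelial cells (PECs) that line Bowman's capsule. Cre was knocked into the WT1 locus itself, so these animals carry a modified WT1 allele in every group, and each library pooled several kidneys. The Sham library held a mixture enriched for tdT+ cells after a sham operation. The IRI24h-TDN library held tdT+ and tdT- cells mixed 2:1, taken 24 h after a severe ischemia-reperfusion injury (IRI) of both kidneys. The IRI24h-TD library held tdT+ cells alone, at the same 24 h. With 1 library per condition there was no replicate, so no test was made, intervals are 95% and cover counting error only, and a difference between libraries cannot be told apart from a difference between the pooled kidneys or their preparation.

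Megalin (Lrp2) and cubilin (Cubn) are large receptors in the brush border that bind filtered albumin, vitamin carriers and many other proteins and carry them into the cell through clathrin-coated pits. Cubilin has no membrane-spanning part of its own and is held at the surface and brought there by amnionless (Amn), with which it forms the cubam complex. Disabled-2 (Dab2) is an adaptor that links the megalin tail to the clathrin coat, and unlike the receptors it is also known from macrophages and other cells.

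All 4 genes were placed on the mm10 (GRCm38) assembly that the labels name. Lrp2 (ENSMUSG00000027070.14) lies on the minus strand of chromosome 2 at 69424340 to 69586065, and Cubn (ENSMUSG00000026726.10) on the same strand and chromosome at 13276338 to 13491813. Amn (ENSMUSG00000021278.7) is a short gene on the plus strand of chromosome 12, at 111271095 to 111276426 over 5.3 kb, against 161.7 kb for Lrp2, 215.5 kb for Cubn and 140.9 kb for Dab2. Dab2 (ENSMUSG00000022150.16) lies on the plus strand of chromosome 15 at 6299788 to 6440712.

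The genes moved to different extents after IRI in proximal-like cells, so the stretch before each start site is shown, 250 bases from RefSeq on GRCm38.p6, read 5′ to 3′ on the strand of the gene. Capitals mark matches, on either strand, to 5 short motifs that were searched, a GTTAAT hexamer, the core of a nuclear receptor site, the GC box, the E-box and the TATA box, whose letters are given with their background shares.
Lrp2, chr2:69586030-69586279, minus strand: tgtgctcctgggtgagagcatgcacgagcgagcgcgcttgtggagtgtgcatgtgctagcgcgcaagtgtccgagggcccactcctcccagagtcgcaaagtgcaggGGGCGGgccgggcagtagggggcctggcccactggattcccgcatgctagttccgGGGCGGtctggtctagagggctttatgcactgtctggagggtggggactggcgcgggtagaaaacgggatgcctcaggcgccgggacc
Cubn, chr2:13491877-13492126, minus strand: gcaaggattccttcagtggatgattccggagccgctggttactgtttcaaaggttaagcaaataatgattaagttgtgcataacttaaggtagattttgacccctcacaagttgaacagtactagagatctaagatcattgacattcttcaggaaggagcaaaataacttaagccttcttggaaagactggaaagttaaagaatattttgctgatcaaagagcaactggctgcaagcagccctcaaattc
Amn, chr12:111270846-111271095, plus strand: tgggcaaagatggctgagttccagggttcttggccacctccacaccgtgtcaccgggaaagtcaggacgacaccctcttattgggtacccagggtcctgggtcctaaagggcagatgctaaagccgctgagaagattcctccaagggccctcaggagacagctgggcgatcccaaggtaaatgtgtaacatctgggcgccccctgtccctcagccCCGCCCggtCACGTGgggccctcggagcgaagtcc
Dab2 first start, chr15:6299539-6299788, plus strand: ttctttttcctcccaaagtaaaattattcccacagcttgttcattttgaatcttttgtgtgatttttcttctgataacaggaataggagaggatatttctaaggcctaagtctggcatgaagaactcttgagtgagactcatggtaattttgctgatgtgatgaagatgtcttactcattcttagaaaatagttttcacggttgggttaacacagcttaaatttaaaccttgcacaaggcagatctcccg
Dab2 second start, chr15:6386498-6386747, plus strand: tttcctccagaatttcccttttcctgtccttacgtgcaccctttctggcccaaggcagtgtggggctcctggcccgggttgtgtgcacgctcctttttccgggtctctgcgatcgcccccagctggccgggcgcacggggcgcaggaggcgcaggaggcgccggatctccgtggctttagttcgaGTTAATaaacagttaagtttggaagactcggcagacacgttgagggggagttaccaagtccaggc
The windows differed in base composition. G and C made up 66.4% of the Lrp2 window, with 18 CG dinucleotides, and 39.6% of the Cubn window, with 2. The Amn window held 61.2% G and C and 11 CG dinucleotides. The 2 Dab2 starts lie 87.0 kb apart and differed in the same way, at 36.8% and 2 CG dinucleotides for the first and 60.0% and 17 for the second. Lrp2 had 2 GC boxes, Amn had a GC box on the opposite strand next to an E-box, the second Dab2 start had 1 GTTAAT hexamer, and the Cubn and first Dab2 windows held none of the letters searched. Over all 32851 RefSeq windows of this length, 6.43% held GTTAAT on either strand, 14.0% the nuclear receptor core AGGTCA, 32.7% the GC box GGGCGG, 6.02% the E-box CACGTG and 12.4% the TATA box TATAAA. Such a match is a description of the letters alone.

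Cell classes were named from marker genes and each name was read with that limit. The libraries held 69980443 (Sham), 92355554 (IRI24h-TDN) and 93470709 (IRI24h-TD) UMIs, with a median of 7746, 9151 and 9529 per kept barcode, and 102 to 114 barcodes were shared by each pair of libraries. Proximal-like cells numbered 920 in Sham against 111 in IRI24h-TDN and 60 in IRI24h-TD, with median UMI counts of 6883, 11346 and 1049, so that most of the IRI24h-TD cells were very shallow. With at most 20% mitochondrial UMIs allowed in place of 50%, only 467, 57 and 19 cells were proximal-like. Injured-like cells, a cluster led by Havcr1 (the kidney injury molecule KIM-1) and Krt20, numbered 76, 50 and 18. PEC-like cells numbered 441, 99 and 162, and a class with both PEC and proximal markers, called PEC-proximal mixed, 374, 116 and 160. Podocyte-like cells made up most of the rest, with 4408, 5168 and 8788 cells, and served as the class that should lack Lrp2, Cubn and Amn. The class names were not clean in several places. Krt20 also led a proximal-like subcluster of 134 cells, 101 of them in Sham. That subcluster had a median of 2540 UMIs and Havcr1 at 1118 CPM over all libraries. The mitochondrial genes mt-Nd5 and mt-Nd2 were among its leading genes and among those of another proximal-like subcluster, of 200 cells. The injured marker list, which includes Lcn2, Clu and Spp1, was not particular to injured-like cells, with a summed 7443 CPM (counts per 1000000 UMIs of the class) there against 49680 in ascending limb-like and 40017 in distal convoluted-like cells, so the class rests on its leading genes. The 76 Sham cells that clustered as injured-like held 0 UMIs of Havcr1, while Havcr1 stood at 3495 CPM in the 50 IRI24h-TDN cells of that cluster and at 920 in the 18 IRI24h-TD cells. None of the 3 PEC-like subclusters had a listed PEC marker among its 10 leading genes. The leading genes of 1, of 103 cells, included Rgs5 and Sparcl1, which also lead the mural cluster. It held more UMIs of proximal markers (7682 CPM) than of PEC markers (5302 CPM). The Sham PEC-like levels and their log2 ratios to proximal-like cells are given with and without it, as are the Lrp2 levels after IRI. Other PEC-like values include it. Another subcluster, of 279 cells, held podocyte markers at 3174 CPM beside 5163 CPM of PEC markers. It shared the leading genes Lsp1, Fgl2 and Ogn with an unnamed cluster.

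In Sham, Lrp2 stood at 2902 CPM in proximal-like cells (21465 UMIs, interval 2863 to 2941) and was seen in 96.5% of them. After IRI it stood at 568 CPM in IRI24h-TDN (891 UMIs, 531 to 606) and at 499 CPM in IRI24h-TD (212 UMIs, 434 to 571). The intervals of both IRI libraries lay below that of Sham and overlapped each other. The IRI24h-TDN level was lower by 5.11-fold, a log2 ratio of -2.35 (-2.45 to -2.26), and the log2 ratio of IRI24h-TD to Sham was -2.54. Without the correction between libraries only 3 IRI24h-TDN cells were proximal-like and 152 injured-like, and the Lrp2 ratio was -1.31, from 12 UMIs. The share of proximal-like cells with an Lrp2 UMI was 79.3% in IRI24h-TDN, and with every cell thinned to 2400 UMIs the shares were 97.0% in Sham and 51.4% in IRI24h-TDN. Over single cells, the median Lrp2 count per 10000 UMIs was 25.6 in Sham (quartiles 16.2 and 37.0) and 4.47 in IRI24h-TDN (quartiles 1.49 and 7.29), so the upper quartile after IRI lay below the lower quartile in Sham.

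Cubn, the receptor that shares albumin and vitamin carriers with megalin, was also lower after IRI, by less than Lrp2. Its level in proximal-like cells was 294 CPM in Sham (2173 UMIs) against 134.5 in IRI24h-TDN (211 UMIs) and 111 in IRI24h-TD (47 UMIs). The log2 ratio of IRI24h-TDN to Sham was -1.13 (-1.34 to -0.92), and that of IRI24h-TD was -1.41. Cells with a Cubn UMI went from 69.0% to 54.1% between Sham and IRI24h-TDN, or from 43.9% to 20.6% after thinning. The median cell held 2.10 Cubn UMIs per 10000 in Sham and 0.731 in IRI24h-TDN. In the 3 cells left without the correction between libraries the Cubn ratio turned to 0.02, from 3 UMIs.

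Amn, the membrane anchor of cubilin, did not differ between Sham and IRI24h-TDN beyond counting error. It stood at 161 CPM in Sham (1189 UMIs) against 148 in IRI24h-TDN (232 UMIs) and 205 in IRI24h-TD (87 UMIs), a log2 ratio of -0.12 (-0.33 to 0.08) for IRI24h-TDN and of 0.35 (0.02 to 0.66) for IRI24h-TD. The sign of the Amn ratio depended on which cells were counted as proximal-like, over a range of -0.63 to 0.35. The share of cells with an Amn UMI was 56.7% in Sham and 64.0% in IRI24h-TDN, and 31.0% and 34.6% after thinning.

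Dab2, the clathrin adaptor, was the only member with a higher level in IRI24h-TDN. It stood at 726.5 CPM in Sham (5374 UMIs) against 966 in IRI24h-TDN (1516 UMIs) and 760 in IRI24h-TD (323 UMIs). The log2 ratio was 0.41 (0.33 to 0.49) for IRI24h-TDN, and the intervals of Sham (707 to 746) and IRI24h-TD (679.5 to 848) overlapped, with a log2 ratio of 0.07. With the trimmed mean of M values (TMM), a scaling that moved all log2 ratios of this comparison by -0.19, the Dab2 ratio was 0.22, and with thinned cells it was 0.20. The share of cells with a Dab2 UMI was 86.2% in Sham and 83.8% in IRI24h-TDN.

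**Figure D1:**
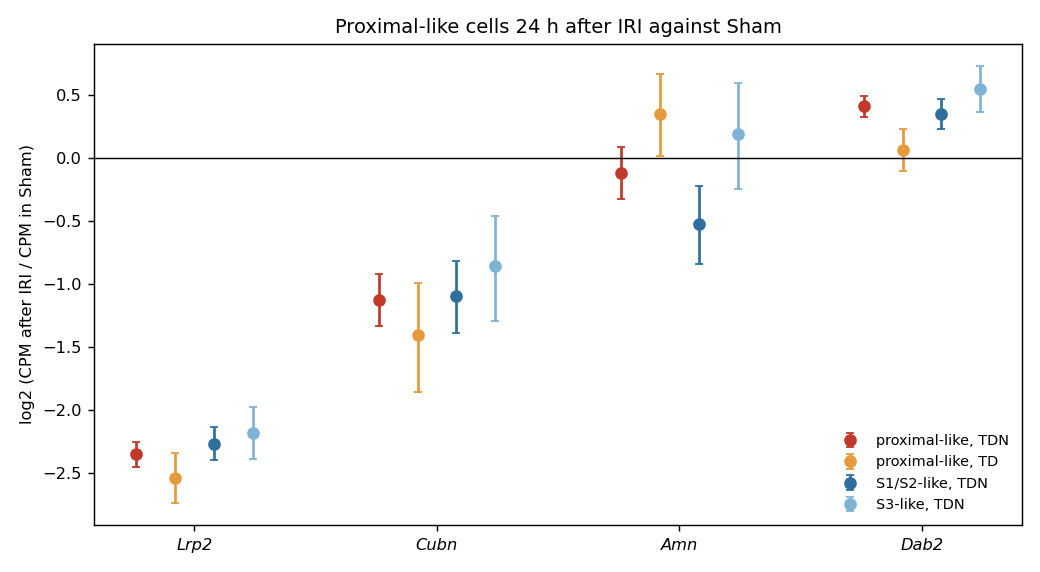
Log2 ratio of the CPM after IRI to the CPM in Sham (vertical axis) for each member in proximal-like cells, as points with 95% counting intervals, for IRI24h-TDN, IRI24h-TD and, in IRI24h-TDN, the S1/S2-like and S3-like cells alone. Lrp2 lies lowest, at -2.35 in IRI24h-TDN, Cubn next at -1.13, Amn near 0 at -0.12 and Dab2 above 0 at 0.41.

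The ratio of one member's UMIs to another's in the same cells does not depend on the library's depth. In proximal-like cells there were 10.1 Cubn UMIs for each 100 Lrp2 UMIs in Sham (9.68 to 10.6) against 23.7 in IRI24h-TDN (20.3 to 27.6) and 22.2 in IRI24h-TD (15.8 to 30.5). Both IRI intervals lay above that of Sham. Amn moved further against Lrp2, with 5.54 UMIs per 100 Lrp2 UMIs in Sham (5.22 to 5.87) against 26.0 in IRI24h-TDN (22.4 to 30.1) and 41.0 in IRI24h-TD (31.6 to 52.9). These are ratios of counted molecules and say nothing of which transcript was the more abundant in the cell. After thinning to 2400 UMIs, 40.1% of 811 Sham proximal-like cells held UMIs of 3 members and 9.49% of all 4, against 21.5% and 6.54% of 107 IRI24h-TDN cells. Cells with none of the 4 were 0.740% in Sham and 13.1% in IRI24h-TDN.

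Across all 11740 genes with at least 10 UMIs in both libraries together, 14.4% were lower by at least 2-fold in IRI24h-TDN proximal-like cells and 15.9% were higher. Of the 4 members, 2 were lower by at least 2-fold (Lrp2 and Cubn) and 0 were higher. The 16 proximal markers that named the class were lower too, 14 of 16 below Sham and 12 of 16 by at least 2-fold, with a median log2 ratio of -1.53. Among them the phosphate transporter Slc34a1 stood at -2.61 and Slc7a13, an S3 amino acid transporter, at -7.02, while the sulfate transporter Slc13a1 stood at 1.27. Lrp2 thus lay below the median of that list and Cubn, Amn and Dab2 above it.

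The segments of the tubule differed little in the receptors. In Sham, Lrp2 stood at 3154 CPM in 214 S1/S2-like cells, the convoluted and upper straight parts, and at 3213 CPM in 244 S3-like cells, the lower straight part, a log2 ratio of -0.03 (-0.08 to 0.02). Cubn stood at 333 and 329 CPM. Amn was higher in S1/S2-like cells, at 210 against 162 CPM (log2 0.37, 0.16 to 0.58), and so was Dab2, at 924 against 666 CPM (log2 0.47, 0.37 to 0.57). These segment classes came from clusters, so the ratios describe them.

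Between Sham and IRI24h-TDN the same order of genes held within S1/S2-like cells, with log2 ratios of -2.27 for Lrp2, -1.10 for Cubn, -0.53 for Amn and 0.35 for Dab2 (214 and 40 cells). In S3-like cells the values were -2.18, -0.86, 0.19 and 0.55, from only 15 cells in IRI24h-TDN. Amn was therefore lower than in Sham in S1/S2-like cells, where 145 CPM (121 to 174) stood against 210 (187 to 234), while the S3-like intervals of 185 CPM (138 to 242) and 162 (148 to 177) overlapped. Proximal-like cells in clusters that met neither segment's markers (462 in Sham, 56 in IRI24h-TDN) had Lrp2 at 2426 and 330 CPM, Cubn at 234 and 69.0, and Amn at 132 and 129. Dab2 stood at 684.5 CPM (654 to 716) against 584 (516.5 to 658) there, lower in IRI24h-TDN with intervals that just overlapped, so the higher Dab2 level rested on the cells whose segment could be named. Cubn per 100 Lrp2 UMIs went from 10.5 to 23.7 in S1/S2-like cells and from 10.3 to 25.6 in S3-like cells. With proximal-like and injured-like cells summed, the log2 ratios were -2.65, -1.75, -0.63 and 0.13.

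Most IRI24h-TDN cells that clustered as proximal-like also carried Havcr1. Havcr1 stood at 6.22 CPM in Sham proximal-like cells against 2324 in IRI24h-TDN and 2313 in IRI24h-TD, and 74.8% of the IRI24h-TDN cells held at least 1 UMI of it. Thinned IRI24h-TDN cells with 0 Havcr1 UMIs (40 cells), 1 to 2 (23 cells) and at least 3 (44 cells) had Lrp2 at 490, 652 and 502 CPM and Dab2 at 865, 888 and 729 CPM. Cubn stood at 115, 199 and 75.8 CPM and Amn at 198, 163 and 161 CPM in the same cells. The Lrp2 level in cells with 0 Havcr1 UMIs after thinning was thus below the Sham level as well. Some of these 40 cells held Havcr1 UMIs in their full counts, so they are not a group without Havcr1.

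In the injured-like cluster after IRI all 4 members lay below proximal-like cells of the same libraries. Lrp2 stood at 303 against 553 CPM (log2 -0.87, -1.04 to -0.70) and Dab2 at 565 against 922 CPM (log2 -0.71). Cubn stood at 26.0 against 129 CPM, from 35 and 258 UMIs, a log2 ratio of -2.32 (-2.87 to -1.80), and Amn at 52.0 against 160 CPM (log2 -1.62). Of 10517 genes, 8.07% were lower and 10.1% higher by at least 2-fold, and 2 of 4 members were lower (Cubn and Amn) and 0 higher. The 2 classes are clusters of the same cells, so these counts describe them and nothing is read from them. The order in IRI24h-TDN alone was -0.88, -2.48, -1.64 and -0.75 for Lrp2, Cubn, Amn and Dab2, and in IRI24h-TD alone, with 18 injured-like cells, -0.94, -1.39, -1.17 and -0.61. The size depended on which cells formed the cluster and on thinning, with Lrp2 from -1.72 to -0.25 and Cubn from -3.63 to -0.94 over the alternatives. The end nearer 0 came in both from thinned cells with the class labels unchanged.

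In IRI24h-TDN, Cubn was also lower relative to Lrp2 in injured-like cells when all UMIs were summed. There were 7.82 Cubn UMIs per 100 Lrp2 UMIs in injured-like cells (5.16 to 11.4). Proximal-like cells had 23.7 (20.3 to 27.6), and these intervals did not overlap. The median depth differed, at 22973 UMIs in injured-like and 11346 in proximal-like cells. Thinned injured-like cells with 0, 1 to 2 and at least 3 Havcr1 UMIs held 4, 3 and 0 Cubn UMIs beside 9, 20 and 27 of Lrp2. Thinned proximal-like cells held 11, 11 and 8 beside 47, 36 and 53. The thinned injured-like counts are too few for a close ratio. With all UMIs summed, the IRI24h-TD proportions were 16.2 in injured-like cells (5.59 to 38.8, from 6 Cubn UMIs) and 22.2 in proximal-like cells (15.8 to 30.5), which overlapped. In the Sham cells of the cluster the proportion was 12.1 (8.75 to 16.3) beside 10.1. Without the correction between libraries the log2 ratios of Cubn and Lrp2 were close, at -1.27 and -1.23. Amn in IRI24h-TDN stood at 15.4 (11.4 to 20.4) against 26.0 (22.4 to 30.1). In the 76 Sham cells of the cluster, which lacked Havcr1, Lrp2 stood at 1708 CPM, Cubn at 206, Amn at 180 and Dab2 at 734, log2 ratios of -0.77, -0.51, 0.17 and 0.02 to Sham proximal-like cells.

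**Figure D2:**
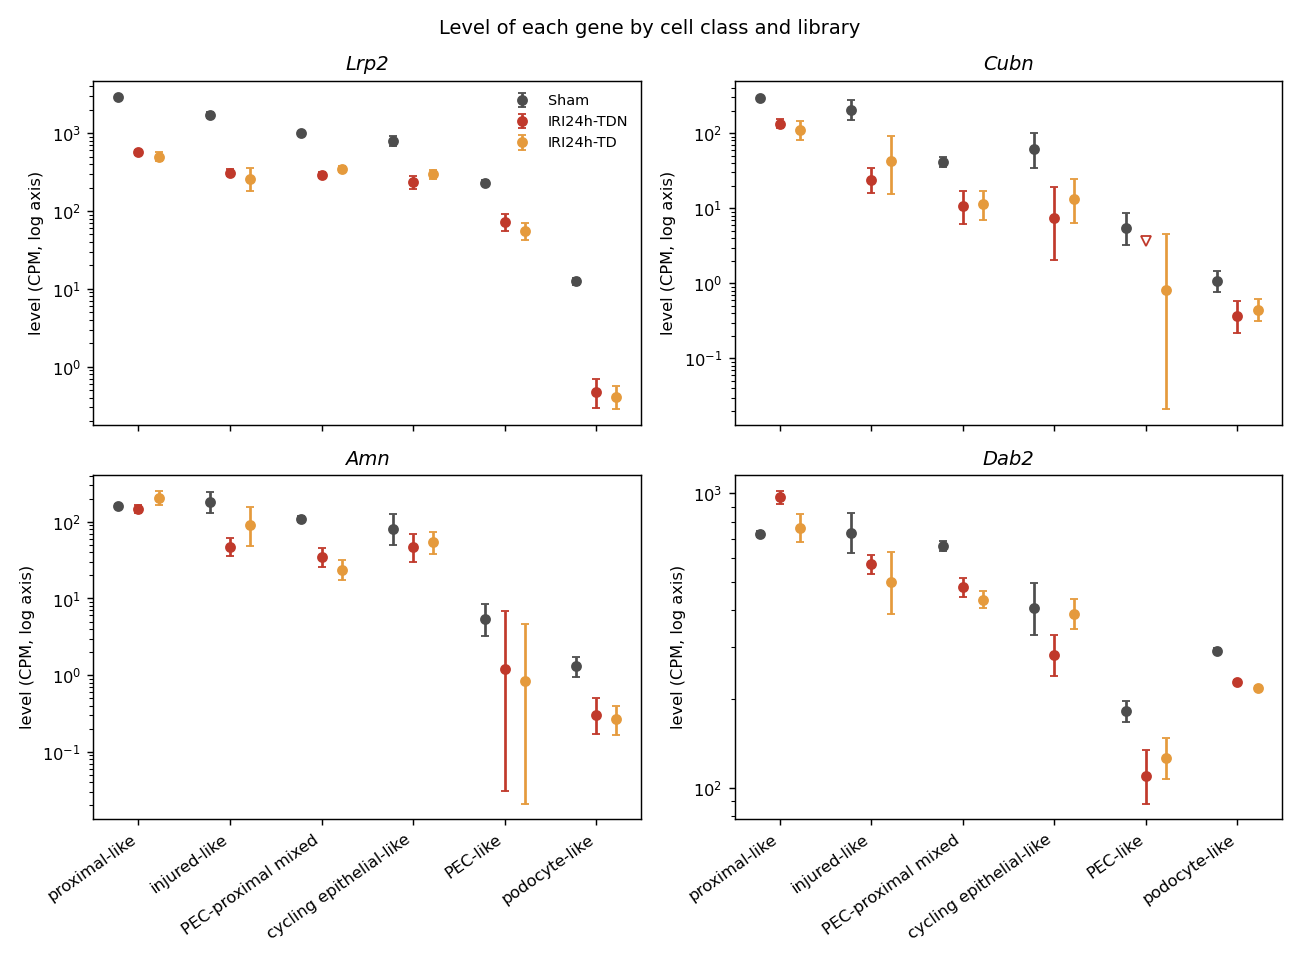
Level of each member in CPM (log axis) by cell class and library, with 95% counting intervals and open triangles at the limit that 3 counts would give where 0 UMIs were seen. Among the classes plotted, proximal-like cells have the highest Lrp2 level in every library (2902, 568 and 499 CPM), and Cubn and Amn lie at 0 or a few CPM in PEC-like and podocyte-like cells.

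PEC-like cells held Lrp2 but hardly any Cubn or Amn. In Sham their Lrp2 level was 230 CPM (762 UMIs), with a UMI in 39.2% of cells, or 23.4% after thinning. In IRI24h-TDN it was 71.8 CPM (59 UMIs, 25.3% of cells) and in IRI24h-TD 55.3 CPM (67 UMIs, 20.4%). Podocyte-like cells of the same libraries, with median depths of 8232, 9325 and 9530 UMIs against 6376, 7891 and 6196 in PEC-like cells, held Lrp2 at 12.4, 0.467 and 0.407 CPM, in 8.64%, 0.406% and 0.364% of cells. The Lrp2 share in PEC-like cells lay above the podocyte-like share in each library, and after thinning it was 23.4%, 11.3% and 9.03% against 2.67%, 0.136% and 0.110%.

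Cubn in PEC-like cells came to 18 UMIs in 5 of 441 Sham cells, 0 in the 99 IRI24h-TDN cells and 1 in the 162 IRI24h-TD cells. Taken at a limit of 3 counts, the count of 0 allows up to 3.65 CPM, or a UMI in up to 3.03% of cells. The Sham share of 1.13% lay near the 0.771% of podocyte-like cells, taken as the background, and after thinning the 2 shares were 0.499% and 0.186%. Amn came to 18, 1 and 1 UMIs, in 2.72%, 1.01% and 0.617% of cells, against 1.02%, 0.271% and 0.193% in podocyte-like cells. Without the subcluster of 103 cells, led by Serpine2 and Igfbp5, the Sham values were 207 CPM for Lrp2, 2.30 for Cubn (7 UMIs), 3.94 for Amn and 178 for Dab2, and Lrp2 stood at 79.7 CPM in IRI24h-TDN and 58.9 in IRI24h-TD.

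Against proximal-like cells in Sham, the PEC-like log2 ratios were -3.66 for Lrp2, -5.76 for Cubn, -4.89 for Amn and -2.0 for Dab2. Without that subcluster they were -3.81, -7.00, -5.35 and -2.03. All 4 members were lower by at least 2-fold, where 15.9% of 13032 genes were, and since the classes were drawn from the same counts this is a description. Relative to the proximal-like level of the same library, PEC-like Lrp2 came to 7.92%, 12.7% and 11.1% in the order Sham, IRI24h-TDN, IRI24h-TD. The summed proximal markers were at 3.02%, 0.264% and 0.616%, Cubn at 1.85%, 0% and 0.746%, and Amn at 3.38%, 0.823% and 0.403%. In both IRI libraries the relative level of Lrp2 was thus above those of the marker list, Cubn and Amn. All these shares include that subcluster.

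The Lrp2 UMIs were unevenly spread among PEC-like cells. The subcluster led by Wnt16 and Tnc held 59 of 59 of them in IRI24h-TDN (47 cells) and 67 of 67 in IRI24h-TD (70 cells), at 123 and 99.3 CPM. Its 203 Sham cells stood at 301 CPM, and 69.0%, 53.2% and 47.1% of its cells in Sham, IRI24h-TDN and IRI24h-TD had an Lrp2 UMI. The subcluster led by Lsp1 and Clstn2 held 66 Lrp2 UMIs in 173 Sham cells (56.6 CPM) and 0 in its 35 IRI24h-TDN and 71 IRI24h-TD cells, which allows up to 11.6 and 6.47 CPM. Dab2 was not split in this way, at 174 and 184 CPM in the Sham cells of the 2 subclusters.

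In the PEC-proximal mixed class Lrp2 stood at 991 CPM in the Sham library, 290 in IRI24h-TDN and 346 in IRI24h-TD cells. Cubn stood at 41.8, 10.7 and 11.3 CPM, Amn at 109, 34.6 and 23.6, and Dab2 at 661, 478 and 435. All 4 were lower in both IRI libraries than in Sham. As a share of the proximal-like level of the same library, Lrp2 was 34.1%, 51.1% and 69.3%, Cubn 14.2%, 7.96% and 10.2%, Amn 67.6%, 23.4% and 11.5%, and Dab2 91.0%, 49.5% and 57.2%, beside 15.3%, 19.8% and 23.9% for the summed proximal markers. Cubn was thus the member with the smallest share in each library.

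The proportion of Cubn to Lrp2 separated the mixed class and PEC-like cells from proximal-like cells. There were 4.22 Cubn UMIs per 100 Lrp2 UMIs in the mixed class in Sham (3.57 to 4.95), beside 3.69 in IRI24h-TDN (2.13 to 5.97) and 3.26 in IRI24h-TD (2.03 to 4.98). Proximal-like cells had 10.1, 23.7 and 22.2, and the intervals of the 2 classes overlapped in no library. PEC-like cells in Sham had 2.36 (1.39 to 3.76). Without the subcluster led by Serpine2 and Igfbp5, 7 Cubn UMIs stood beside 632 Lrp2 UMIs there. Podocyte-like cells in Sham, where the few Lrp2 UMIs are taken as background, had 8.70 (6.13 to 12.0), which overlapped the proximal-like interval and not the PEC-like one. In the IRI libraries podocyte-like cells held 23 and 34 Lrp2 UMIs and 18 and 37 Cubn UMIs, more Cubn for each Lrp2 UMI than in proximal-like cells. As percent of the proximal-like level, Cubn stood at 0.272% and 0.401% there, beside 0.0822% and 0.0817% for Lrp2. The cause was not tested. The part of free RNA or of doublets in the mixed class was not tested beyond these counts. The top 6% of doublet scores took in 8.82%, 2.59% and 0.625% of the mixed class.

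Within the mixed class the subcluster led by Krt18 and Krt7, keratins of simple epithelia, had Lrp2 at 635, 192 and 252 CPM and Cubn at 8.66, 6.37 and 2.78 CPM in Sham, IRI24h-TDN and IRI24h-TD. The subcluster whose leading genes include Wfdc16 and Cd74 had Lrp2 at 1147, 433 and 463 CPM and Cubn at 56.4, 17.0 and 21.9 CPM. Lrp2 was thus higher in the second in each library and lower after IRI in both subclusters. Cubn in the first came from 10, 6 and 3 UMIs with overlapping intervals, while in the second both IRI intervals (8.49 to 30.4 and 13.2 to 34.2 CPM) lay below that of Sham (47.6 to 66.2). A small class of cycling cells, led by Top2a and Mki67 with 20, 27 and 41 cells, had Lrp2 at 797, 233 and 297 CPM and Dab2 at 407, 282 and 389 CPM.

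**Figure D3:**
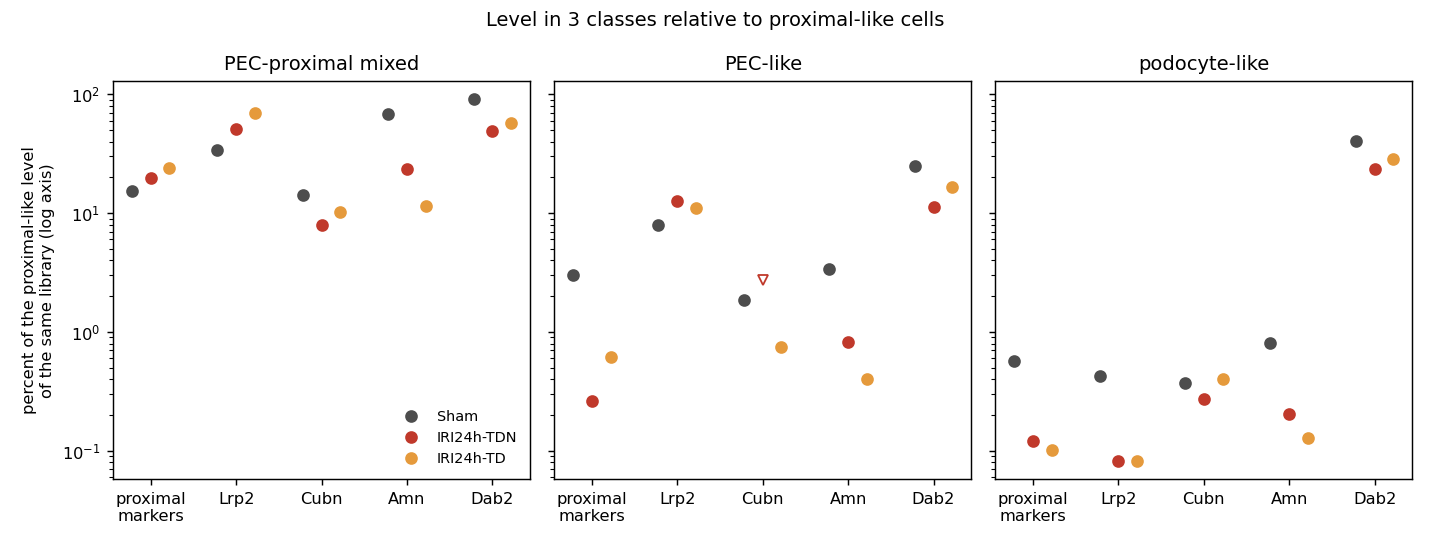
Level of the summed proximal markers and of each member in 3 classes, as percent of the proximal-like level of the same library (log axis), one point per library and open triangles at the limit of 3 counts where 0 UMIs were seen. In PEC-like cells Lrp2 sits at 7.92%, 12.7% and 11.1% while Cubn and Amn lie at or below 3.38%. These PEC-like values include the subcluster led by Serpine2 and Igfbp5.

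Lrp2 was lower after IRI in classes that should not make it as well. Among classes with at least 15 cells in each library and at least 10 UMIs, Lrp2 was lower in IRI24h-TDN than in Sham in 17 of 17 and in IRI24h-TD in 12 of 13, the exception being mesangial/mural-like cells with 4 UMIs in IRI24h-TD. In podocyte-like cells it went from 12.4 to 0.467 CPM, and in Sham the other non-epithelial and distal classes held 14.8 to 66.2 CPM, except 21 neutrophil-like cells at 184 CPM. Cubn was lower in 9 of 9 classes in each IRI library and Amn in 9 of 10 and 6 of 7. These counts include proximal-like, injured-like, mixed and cycling cells, which carry the genes. In podocyte-like cells the log2 ratios for IRI24h-TDN and IRI24h-TD were -1.57 and -1.29 for Cubn and -2.09 and -2.30 for Amn. The Lrp2 intervals of ascending limb-like, macrophage/monocytic-like and distal convoluted-like cells in IRI24h-TD reached above 0. The receptor RNA found in podocyte-like cells was thus lower in both IRI libraries too, and its part in the class levels was not tested. Proximal-like cells stood at 2902 CPM of Lrp2 against 12.4 in podocyte-like cells in Sham, so their level was far above this background.

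Dab2 was the member with a wide range of classes. Outside the proximal and parietal epithelium its highest levels were in macrophage/monocytic-like cells, at 468 CPM in Sham (794 UMIs, 330 cells) and 991 in IRI24h-TDN (6501 UMIs, 968 cells), and in intercalated-like cells, the acid-base cells of the collecting duct, at 715 (182 cells) and 686 CPM (357 cells). In macrophages the intervals of the 2 libraries did not overlap, with a log2 ratio of 1.08 (0.98 to 1.19), and after thinning the levels were 556.5 and 961 CPM. The intercalated-like intervals overlapped. Among the named classes in Sham, leaving out the podocyte-gene-rich cluster (456.5 CPM, 73 cells, many with high doublet scores), the order was injured-like (734 CPM, 628 to 852), proximal-like (726.5, 707 to 746), intercalated-like (715, 679 to 752), the mixed class (661), macrophage/monocytic-like (468), cycling (407), podocyte-like (292), endothelial-like (222), PEC-like (182) and connecting/principal-like cells (169), and the first 3 of these had overlapping intervals.

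Dab2 was higher in IRI24h-TDN in each of the 3 macrophage/monocytic-like clusters. In the cluster led by complement C1q genes, Dab2 stood at 629 CPM in Sham and 1074 in IRI24h-TDN. In the cluster led by Chil3 and Lyz2, genes of monocytes, it stood at 258 and 807 CPM, and in the cluster with H2-Ab1, a class II antigen gene, at 86.3 and 844 CPM. Dab2 in podocyte-like cells was 292, 228 and 218 CPM in Sham, IRI24h-TDN and IRI24h-TD. Distal convoluted-like cells had the least among tubular classes, at 16.4 and 16.1 CPM in Sham and IRI24h-TDN.

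**Figure D4:**
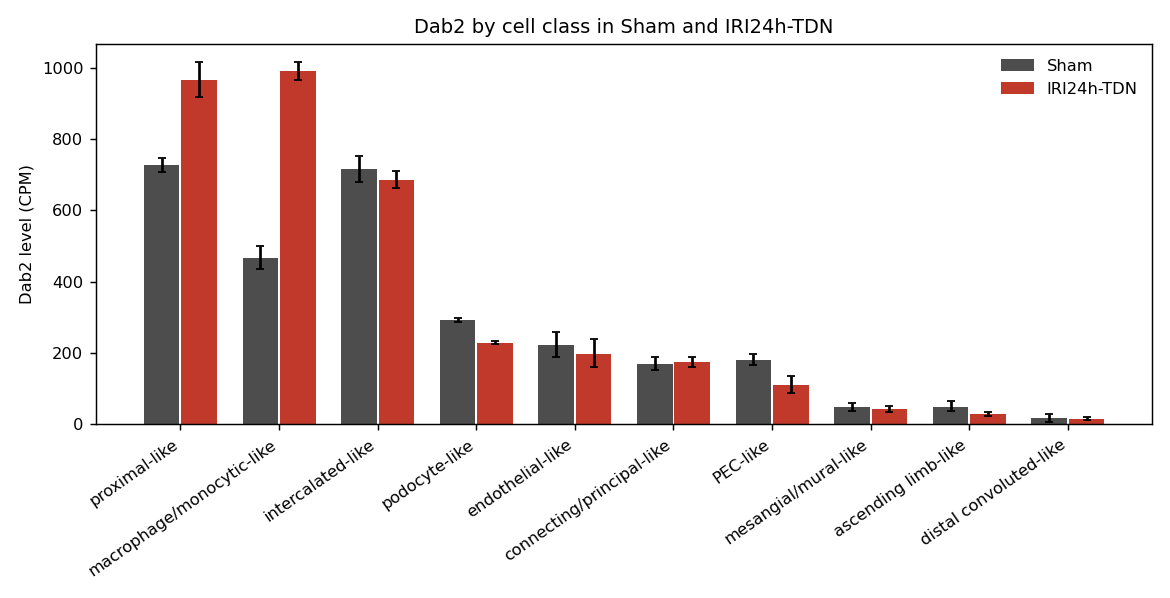
Dab2 level in CPM (bars from 0, with 95% counting intervals) by cell class in Sham and IRI24h-TDN. Proximal-like cells stand at 726.5 and 966 CPM, macrophage/monocytic-like cells at 468 and 991 CPM, and intercalated-like cells at 715 and 686 CPM.

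The other genes of the endocytic pathway, 74 in 7 lists, moved in both directions between Sham and IRI24h-TDN proximal-like cells. Of 72 with enough UMIs, 16 were higher and 7 lower by at least 2-fold, with a median log2 ratio of 0.32 beside 0.10 over all 11740 genes. Those shares may be read against the 15.9% and 14.4% of all genes given above. Among adaptors and chaperones (7 genes, 1 higher, 1 lower), Gipc1, which binds the megalin tail, went from 12.3 to 55.4 CPM (log2 2.17), and Lrpap1, the chaperone RAP that escorts megalin through the secretory pathway, from 282.5 to 99.4 CPM (log2 -1.51). Ankra2, which also binds the megalin tail, stood at -0.49.

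In the clathrin coat list (14 genes, 4 higher, 1 lower, median 0.64), 3 AP-2 subunits were higher, Ap2m1 by 1.55, Ap2b1 by 1.28 and Ap2s1 by 1.24 on the log2 scale, while Ap2a1 stood at -2.05 from only 2 UMIs in IRI24h-TDN. Endosome and acidification genes (16 genes, 1 higher, 1 lower, median 0.56) included the recycling GTPase Rab11a at 1.59, the chloride exchanger Clcn3 at -1.05, and the sorting genes Vps35 and Ehd1, both at 0.94. Among 11 lysosomal genes (4 higher, 1 lower, median 0.29), the proteases Ctsb, Lgmn and Ctsl stood at 2.83, 2.36 and 1.37. Ctsb went from 341 to 2419 CPM. The lists on coat, endosome and lysosome thus had medians above that of all genes, opposite to Lrp2 and Cubn.

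Of 9 other genes for uptake and vitamin handling, 2 were higher and 1 lower (median -0.48). Cyp24a1, which breaks down vitamin D, went from 7.44 to 326 CPM (log2 5.45), the transcobalamin receptor Cd320 stood at 1.02, the folate receptor Folr1 at -1.01 and the folate transporter Slc46a1 at -0.89. Relatives of megalin in the LDL receptor family (9 genes, 4 higher, 0 lower, median 0.75) included Lrp8 at 3.51, Lrp5 at 1.17 and Lrp4 at -0.84. Of 6 transcription factor genes known in the proximal tubule (0 higher, 2 lower, median -0.53), Maf stood at -0.58 and Hnf4a at -0.48. In injured-like against proximal-like cells after IRI, 3 of 69 pathway genes were higher and 7 lower by at least 2-fold, with a median of -0.15 beside 0.21 over all genes.

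**Figure D5:**
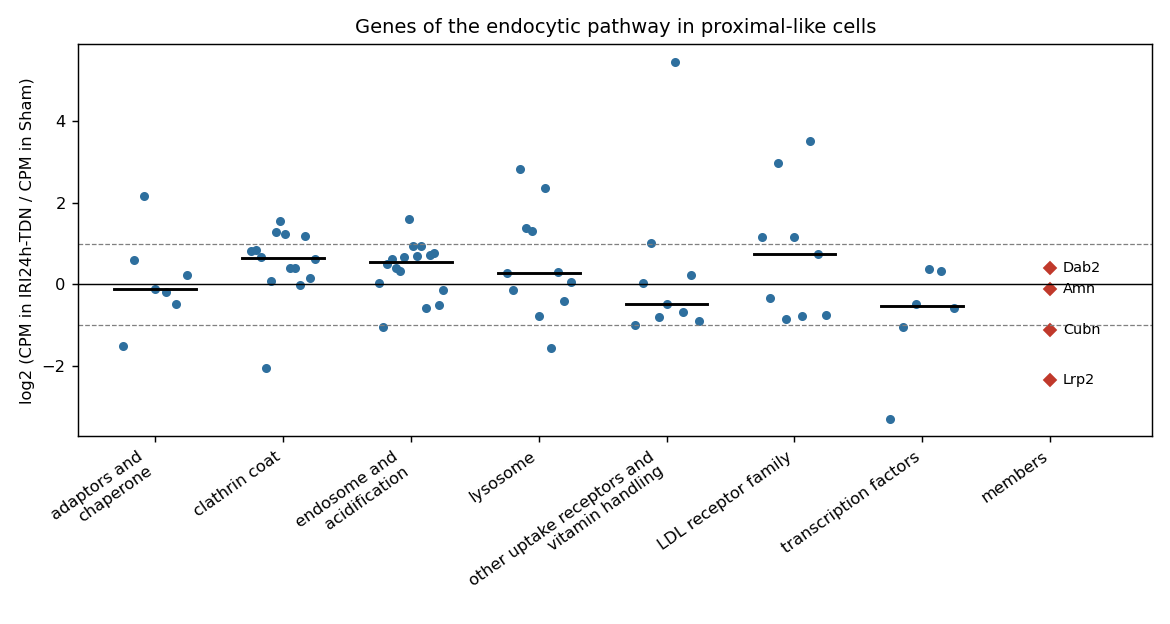
Log2 ratio of CPM in IRI24h-TDN to Sham in proximal-like cells for the genes of 7 endocytic pathway lists and the 4 members, one point per gene. The clathrin coat and endosome lists lie mostly above 0, and Lrp2 and Cubn lie below it at -2.35 and -1.13.

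Across 28 groups of at least 50 cells, each a class in 1 library, Cubn and Amn followed each other most closely, with a Pearson correlation of 0.958 over log2(CPM + 1). Lrp2 followed Amn at 0.905 and Cubn at 0.872, and Dab2 stood apart at 0.507 with Lrp2, 0.569 with Cubn and 0.581 with Amn. The groups share libraries and free RNA, so these values are a description. The genes most like Lrp2 were Bdh2 (0.96), Ugt2b37 (0.94), Ugt2b38 (0.94) and Slco1a6 (0.92), and those most like Cubn were Slc23a1 (0.97), Gm19950, Pdzd3, Slc6a20b and Gm4450 (0.96). For Amn they were Dao (0.98), A1cf, Pdzd3, Acsm1 and Cyp2j13 (0.97). Dab2 was most like the cystine transporter gene Ctns (0.86), Epn1 (0.83), Slc11a2 (0.82), Tnfaip8 (0.80) and Hmox1 (0.78), a lower likeness than the nearest genes of the other members.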

How the data were processed

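The study dissociated kidney cortex, sorted tdT+ cells and captured cells on the BD Rhapsody platform. Per the labels, reads were handled with CASAVA, UMI-tools and Seurat on mm10. The authors deposited raw UMI counts per gene and cell barcode, 1 table per library. The members and the lists were chosen with earlier results of these data known. Only the marker lists, the pathway lists and most alternative settings were set before the tables were opened. The class rules were set afterwards, with the members' levels in view, and replaced a first version.

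Counts were log-normalised to 10000 UMIs. Clustering used 2000 variable genes without members or pathway genes, 30 components, a Harmony correction written in numpy 2.4.6, 15 neighbours and Leiden resolution 1 (leidenalg 0.10.2). Most clusters were named from at least 3 detected markers. Injured-like was named from Havcr1 among the 10 leading genes, and podocyte-gene-rich from summed podocyte markers of at least 10000 CPM. Doublets were scored from simulated pairs and kept. UMIs were summed per class and library and scaled to CPM. Intervals are exact Poisson, Clopper-Pearson or conditional binomial. What a count of 0 allows is given at 3 counts, which lies below the upper end of the exact Poisson interval. TMM came from edgeR 4.0.16. Only the log2 ratio and its interval were tested on simulated data, with Poisson counts, the model that the interval assumes. Clustering, class names and free RNA were not part of that test. Pathway genes were named by a rule, up to 4 per list with the largest log2 ratio in either direction among those with at least 30 UMIs, and a few genes that the rule names are not reported here.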

Additional observations from a re-analysis of the deposited data

How the results depend on the processing

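Values below are log2 ratios that moved outside the counting interval of the reported value, and for all of them the cause was not tested, unless the setting used fewer cells. Lrp2 in IRI24h-TDN against Sham kept its direction under all 16 alternatives run, and Cubn under 15 of 16. The exception was Cubn without Harmony, which left 3 IRI24h-TDN proximal-like cells. All 4 members kept their direction under the alternatives run for the other 2 comparisons. The first class rules, S1/S2-like and S3-like cells, single IRI libraries, the summed proximal-like and injured-like cells, the subcluster left out and the CPM without mitochondrial and ribosomal genes were chosen after seeing the data. The injured-like class was the least stable, with 1 to 268 Sham cells over the clusterings run. The PEC-like class also varied, with 169 to 571 Sham cells beside 441 in the main clustering. In IRI24h-TDN against Sham, Lrp2 was -2.26 with at least 500 genes, -1.31 without Harmony, -2.53 with members and pathway genes clustered on, -2.55 with TMM, -2.18 in S3-like cells and -2.65 with injured-like cells added. Cubn was 0.017 without Harmony, -0.87 at resolution 2, -1.44 with members and pathway genes clustered on, -0.86 in S3-like cells and -1.75 with injured-like cells added. Amn was 0.35 without Harmony, -0.53 in S1/S2-like cells, 0.19 in S3-like cells and -0.63 with injured-like cells added. Dab2 was 0.76 without Harmony, 0.31 at resolution 2, 0.13 with members and pathway genes clustered on, 0.22 with TMM, 0.20 thinned, 0.55 in S3-like cells and 0.13 with injured-like cells added. In injured-like against proximal-like cells, Lrp2 was -1.16 with at least 500 genes, -1.72 with at most 20% mitochondrial UMIs, -1.23 without Harmony, -1.31 at resolution 0.5, -0.46 at resolution 2, -1.56 with 4000 variable genes, -1.20 with members and pathway genes clustered on, -1.37 with the first class rules, -1.09 with TMM, -0.58 as a mean over cells and -0.25 thinned. Cubn was -3.63 with at least 500 genes, -2.97 with at most 20% mitochondrial UMIs, -1.27 without Harmony, -1.30 at resolution 2, -2.87 with 4000 variable genes, -3.14 with the first class rules, -0.94 thinned and -1.39 in IRI24h-TD. Amn was -2.10 with at least 500 genes, -2.35 with at most 20% mitochondrial UMIs, -0.21 without Harmony, -0.84 at resolution 2, -2.09 thinned and -1.17 in IRI24h-TD. Dab2 was -1.08 with at least 500 genes, -1.19 with at most 20% mitochondrial UMIs, -0.46 without Harmony, -0.90 at resolution 0.5, -0.21 at resolution 2, -1.01 with 4000 variable genes, -0.95 without the top 6% of doublet scores, -0.87 with the first class rules, -0.93 with TMM, -0.55 as a mean over cells and -0.55 thinned. In PEC-like against proximal-like cells, Lrp2 was -2.92 with at least 500 genes, -3.93 with at most 20% mitochondrial UMIs, -2.86 at resolution 0.5, -3.90 at resolution 2, -3.95 with 4000 variable genes, -3.52 with members and pathway genes clustered on, -3.47 without the top 6% of doublet scores, -2.82 with the first class rules, -4.29 with TMM, -4.14 as a mean over cells, -3.99 thinned, -3.83 without mitochondrial and ribosomal genes and -3.81 without the subcluster rich in proximal markers. Cubn was -6.71 with at most 20% mitochondrial UMIs, -7.22 without Harmony, -7.05 at resolution 2, -7.10 with 4000 variable genes, -4.80 with the first class rules, -7.05 as a mean over cells, -7.01 thinned and -7.00 without the subcluster rich in proximal markers. Amn was -5.79 without the top 6% of doublet scores, -4.15 with the first class rules, -5.78 as a mean over cells and -5.84 thinned. Dab2 was -2.21 with at most 20% mitochondrial UMIs, -1.79 without Harmony, -1.86 at resolution 0.5, -2.13 at resolution 2, -1.83 with members and pathway genes clustered on, -2.19 without the top 6% of doublet scores, -1.70 with the first class rules, -2.63 with TMM, -2.31 thinned and -2.17 without mitochondrial and ribosomal genes. After thinning, the shares of proximal-like cells with a UMI were 51.4% for Lrp2 in IRI24h-TDN and, in Sham and IRI24h-TDN, 43.9% and 20.6% for Cubn, 31.0% and 34.6% for Amn and 74.2% and 72.0% for Dab2. Thinned Dab2 levels were 556.5 and 961 CPM in macrophage/monocytic-like cells of Sham and IRI24h-TDN, 722 in intercalated-like, 151 in connecting/principal-like and 19.2 in mesangial/mural-like cells of IRI24h-TDN, and 283 in podocyte-like cells of Sham. The median of the pathway genes was 0.12 with TMM. No value could be had for Cubn in PEC-like cells without the top 6% of doublet scores, where 0 UMIs were left. No paired analysis was possible because each condition has 1 library.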
